A study of Mus musculus with 6 samples.

Results

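Glycolysis and the pentose phosphate pathway were followed through 32 genes of mouse bone marrow, chosen by name for the enzymes they encode and found among the 47729 genes of the count table by Ensembl identifier. They cover the 10 steps from glucose to pyruvate, lactate dehydrogenase, 2 sets of regulatory enzymes (the PFKFB enzymes and the pyruvate dehydrogenase kinases) and the pentose phosphate pathway. RNA was sequenced from 3 libraries of mice that lack the SNORD113-114 small nucleolar RNA cluster (cluster KO, labelled Mutant) and 3 libraries of wildtype mice. The labels give the tissue as bone marrow for both groups and no strain, age, sex, allele or treatment, and they do not tie a library to a single animal. Each p-value therefore weighs the genotypes only against the spread among these libraries, which may be technical. All 32 genes passed the filter on low counts, from Eno2 with 22 to 47 raw counts a library to Ldha with 18503 to 47550.

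Glycolysis splits glucose into pyruvate in the cytosol and yields ATP and NADH. Hexokinase and phosphofructokinase are its gatekeeping steps, and lactate dehydrogenase turns pyruvate into lactate, which gives back the NAD+ that the pathway needs. The pentose phosphate pathway branches off at glucose-6-phosphate: its oxidative arm makes NADPH, and its non-oxidative arm makes ribose-5-phosphate for nucleotides and exchanges sugars with glycolysis. In bone marrow, hematopoietic stem cells are known for a low oxygen niche and a reliance on glycolysis. In these cells, pyruvate dehydrogenase kinases hold pyruvate back from oxidation in the mitochondrion.

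Levels are given as CPM, read counts scaled to library size with TMM factors, or, where genes are compared with each other, as RPKM, the same values per kilobase of exon. Fold changes are cluster KO over wildtype on the log2 scale with their standard errors (SE), from an edgeR quasi-likelihood fit of all 15686 genes that passed the filter, and a gene is said to have risen or fallen where the Benjamini-Hochberg adjusted p over all of them is under 0.05.

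The 2 groups of libraries differed in more than the enzymes. Library totals ran from 17663369 to 23459168 gene counts. Rian, the host transcript of the snoRNA cluster, was at 0.411, 0.252 and 0.139 CPM in the cluster KO libraries, against 0.497, 0.283 and 1.94 CPM in the wildtype libraries (3 to 38 raw counts a library). The groups overlapped in Rian, so it does not check the deletion, and the snoRNAs themselves were not analysed here. Xist, the RNA of the inactive X chromosome, was at 1.92, 0.0840 and 1.58 CPM in the cluster KO libraries, against 228, 249 and 247 CPM in the wildtype libraries, while the Y-linked genes Ddx3y, Eif2s3y, Kdm5d and Uty summed to 229.9, 272 and 315 CPM in the cluster KO libraries, against 65.5, 50.03 and 73.05 CPM in the wildtype libraries. Every wildtype library thus held both Xist and Y-linked RNA, the cluster KO libraries were close to 0 for Xist, and genotype and sex makeup cannot be told apart. Nuclear and mitochondrial rRNA genes took 0.614, 0.383 and 0.251% in the cluster KO libraries, against 0.998, 1.08 and 1.44% in the wildtype libraries. Of the marker lists for other cells, the summed levels lay apart between the groups for the B lineage (2197 to 2349 CPM in cluster KO and 735 to 795 CPM in wildtype libraries, 9 of 12 markers risen), monocytes (156 to 267 against 129 to 140 CPM, 1 of 8 risen), erythroid cells (673 to 896 against 905 to 1299 CPM, 5 of 9 fallen), megakaryocytes (283 to 290.1 against 426 to 525 CPM, 3 of 7 fallen and 1 risen) and stem and early progenitor cells (1299 to 1309 against 1152 to 1185 CPM, 4 of 10 risen and 2 fallen). They overlapped for neutrophils (10691 to 20304 against 6358 to 12111 CPM, 5 of 14 risen) and for T and NK cells (491 to 613 against 411 to 508 CPM, 2 of 9 risen). No marker was at 0 in any library. The 4 adult globin genes took 0.0246, 0.0331 and 0.0217% in the cluster KO libraries, against 0.0369, 0.0802 and 0.0859% in the wildtype libraries, and no source used here says whether cells were sorted. In bulk RNA, a change in cell makeup and a change of RNA per cell cannot be told apart, and the part of cell makeup, sex makeup and rRNA share in the results below was not tested.

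More of the enzymes rose than fell in cluster KO marrow. Of the 32 genes 17 rose (53.1%) and 5 fell (15.6%), while of all genes tested 15.9% rose and 12.1% fell. The median log2 fold change of the 32 genes was 0.54, beside 0.00 over all genes tested. Of the 32 genes 23, the 22 called ones and Tkt, had libraries that did not overlap between the genotypes, beside 46.0% of all genes tested. The test favours genes whose libraries do not overlap, so this is not separate from the calls. The 17 rises lay between 1.45-fold and 3.40-fold, and 3 of them exceeded 2-fold, as did 2 of the falls; 6.27% of all genes tested rose and 2.89% fell by more than that. Of all gene counts, the 32 genes together took 0.609, 0.696 and 0.778% in the cluster KO libraries, against 0.470, 0.445 and 0.379% in the wildtype libraries (p = 0.1 in a two-sided exact permutation test, which cannot give less with 3 libraries against 3). With 1 library left out, 11 enzyme genes rose without cluster KO 2, wildtype 2 or wildtype 3, and 2 fell without cluster KO 2, cluster KO 3 or wildtype 3 and 3 without wildtype 2. Once trends with transcript length and GC content were taken out, 11 rose and 6 fell. Under upper quartile scaling, 15 enzymes rose and 5 fell, and over all genes 2100 were higher and 2411 lower, where TMM gave 2487 and 1895.

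**Figure D1:**
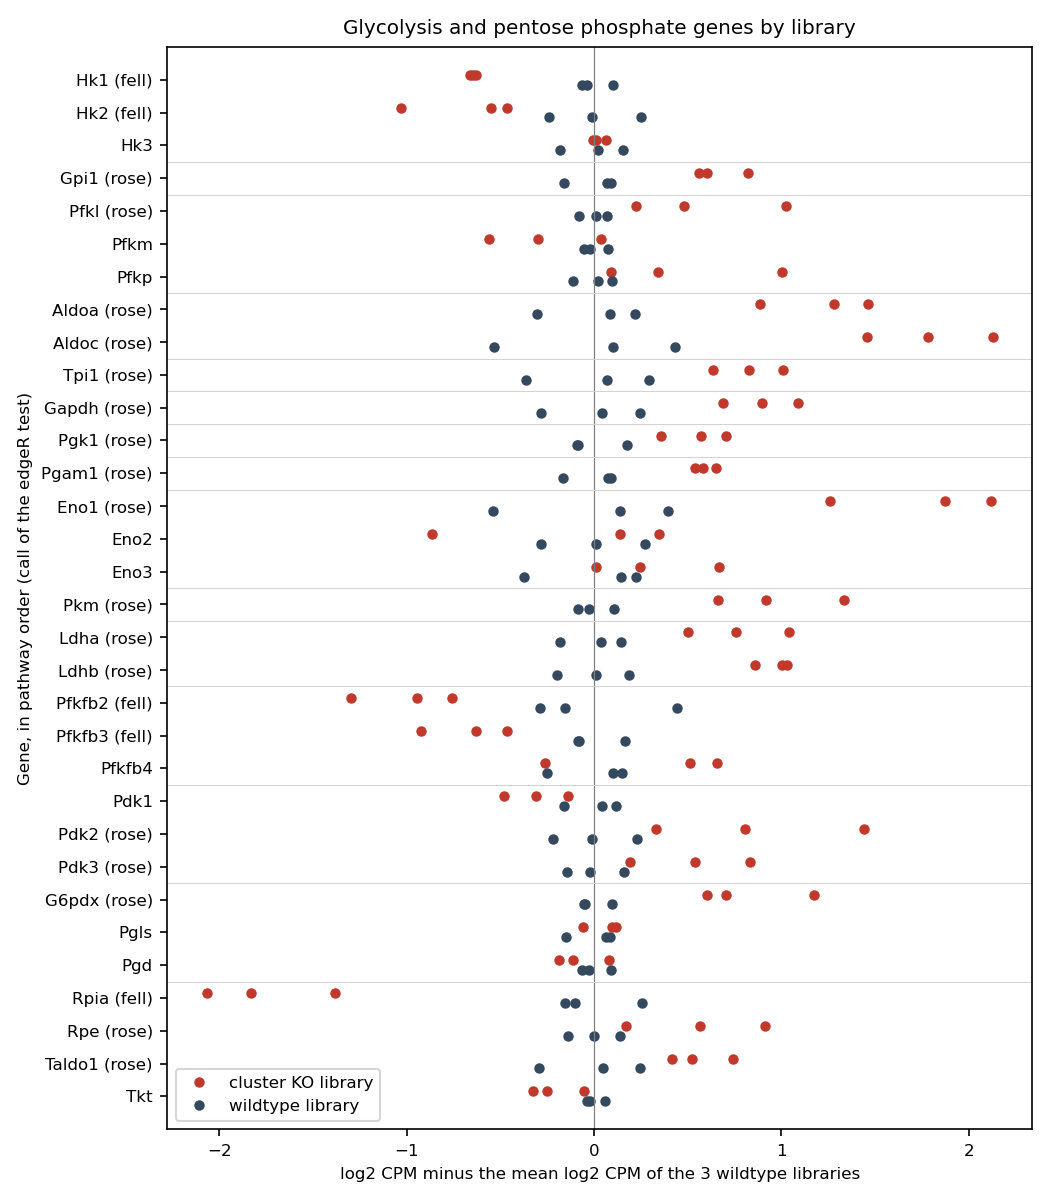
Each gene of the set (rows, in pathway order, with its call) in each library, as log2 CPM minus the mean log2 CPM of the 3 wildtype libraries (horizontal axis); red points are cluster KO and dark points wildtype libraries. The genes from Gpi1 to Ldhb lie mostly to the right in cluster KO, with Eno1 and Aldoc farthest, while Hk1, Hk2, Pfkfb2, Pfkfb3 and Rpia lie to the left.

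At the first step of glycolysis 2 of 3 genes fell. Hexokinases phosphorylate glucose and so trap it in the cell. Hk1, the widespread isoform (chr10:62268855-62379908, mm10), was at 65.5, 64.8 and 66.3 CPM in the cluster KO libraries, against 98.2, 109.9 and 99.9 CPM in the wildtype libraries. The cluster KO libraries lay close together and below every wildtype library, and Hk1 fell (log2 fold change -0.65, SE 0.12, adjusted p = 0.00456). Hk2, the inducible isoform that MYC and HIF-1 are known to activate (chr6:82725025-82774454), was at 24.3, 22.9 and 16.4 CPM in the cluster KO libraries, against 28.4, 33.2 and 39.8 CPM in the wildtype libraries. Again no library overlapped, and Hk2 fell (log2 fold change -0.67, SE 0.20, adjusted p = 0.0308), with adjusted p of 0.0755 without cluster KO 2, 0.0754 without cluster KO 3, 0.0838 without wildtype 2 and 0.126 without wildtype 3. Hk3 (chr13:55005985-55021385), known from myeloid cells, was at 18.6, 17.6 and 17.9 CPM in the cluster KO libraries, against 18.02, 15.7 and 19.7 CPM in the wildtype libraries. Its groups overlapped completely (log2 fold change 0.02, SE 0.17, adjusted p = 0.952). Per exon length, the 3 hexokinases summed to 16.8, 16.2 and 15.4 RPKM in the cluster KO libraries, against 21.2, 22.7 and 23.7 RPKM in the wildtype libraries, the only one of the 10 glycolytic steps whose sum was lower in every cluster KO library.

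Every step from the second to the tenth had at least 1 isoform that rose, 10 of 14 genes in all, and none of the 14 fell. Gpi1 (chr7:34201330-34230336), which turns glucose-6-phosphate into fructose-6-phosphate, was at 290.003, 299 and 348 CPM in the cluster KO libraries, against 206, 209.9 and 176 CPM in the wildtype libraries (log2 fold change 0.66, SE 0.12, adjusted p = 0.00472). Phosphofructokinase, which commits the sugar to glycolysis, is built from 3 subunit genes that moved unequally. Pfkl, the liver type (chr10:77986947-78010083), was at 52.5, 62.7 and 91.7 CPM in the cluster KO libraries, against 47.3, 45.3 and 42.5 CPM in the wildtype libraries. It rose (log2 fold change 0.62, SE 0.20, adjusted p = 0.0405), but the cluster KO libraries ranged widely, and its adjusted p was 0.0797 without cluster KO 2, 0.108 without cluster KO 3, 0.0824 without wildtype 1, 0.112 without wildtype 2 and 0.131 without wildtype 3, where the change without cluster KO 3 was 0.36; after correction for length and GC it was 0.37 and did not pass. Pfkm, the muscle type (chr15:98092589-98132451), was at 33.2, 39.7 and 50.1 CPM in the cluster KO libraries, against 48.1, 47.1 and 51.6 CPM in the wildtype libraries, and its groups overlapped (log2 fold change -0.25, SE 0.17, adjusted p = 0.283). Pfkp, the platelet type (chr13:6579768-6648777), had 28.3, 33.7 and 53.4 CPM in the cluster KO libraries, against 24.6, 28.4 and 26.96 CPM in the wildtype libraries and also overlapped (log2 fold change 0.53, SE 0.23, adjusted p = 0.104; adjusted p = 0.022 without cluster KO 1).

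Aldolase, which splits fructose-1,6-bisphosphate into 2 triose phosphates, rose in both isoforms. Aldoa (chr7:126795234-126800751), the main one, was at 495, 649 and 738 CPM in the cluster KO libraries, against 311, 283 and 216 CPM in the wildtype libraries. The lowest cluster KO library stood clear of the highest wildtype library (log2 fold change 1.21, SE 0.17, adjusted p = 0.00248). Aldoc (chr11:78322968-78327781), best known from brain, was at 21.8, 27.4 and 34.8 CPM in the cluster KO libraries, against 5.51, 8.54 and 10.7 CPM in the wildtype libraries, the largest rise of the set (log2 fold change 1.76, SE 0.27, adjusted p = 0.00291). Triosephosphate isomerase, Tpi1 (chr6:124810586-124814296), interconverts these trioses and was at 647, 741 and 841 CPM in the cluster KO libraries, against 511, 438 and 324 CPM in the wildtype libraries (log2 fold change 0.81, SE 0.16, adjusted p = 0.00694). Wildtype libraries of Tpi1 spread almost as far as the cluster KO ones, without overlap.

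In the payoff phase, where ATP and NADH are made, each of the 5 steps had a gene that rose. Gapdh (chr6:125161715-125166467), the NADH-yielding dehydrogenase that is often used as a reference gene in PCR, was at 505, 583 and 667 CPM in the cluster KO libraries, against 371, 322 and 257 CPM in the wildtype libraries (log2 fold change 0.89, SE 0.15, adjusted p = 0.00381). Pgk1 (chrX:106187100-106203699), the first ATP-yielding kinase, was at 89.8, 104 and 114 CPM in the cluster KO libraries, against 79.1, 65.97 and 65.8 CPM in the wildtype libraries. It rose (log2 fold change 0.55, SE 0.14, adjusted p = 0.0169), with adjusted p of 0.073 without cluster KO 2, 0.081 without wildtype 2 and 0.0721 without wildtype 3, and after correction for length and GC it was at 0.30 and did not pass. Pgam1 (chr19:41911923-41918660), the mutase, had 208, 215 and 225 CPM in the cluster KO libraries, against 152, 151 and 128 CPM in the wildtype libraries (log2 fold change 0.59, SE 0.11, adjusted p = 0.00588). Its change was 0.27 and missed the threshold after correction for length and GC. Eno1 (chr4:150236721-150248879), the ubiquitous enolase, was at 223, 341 and 405 CPM in the cluster KO libraries, against 123, 103 and 64.2 CPM in the wildtype libraries. Even the lowest cluster KO library stood well above the highest wildtype one (log2 fold change 1.74, SE 0.26, adjusted p = 0.00266). The neuronal Eno2 (chr6:124760053-124769673) was near the bottom of the range at 2.14, 0.924 and 1.86 CPM in the cluster KO libraries, against 2.03, 1.70 and 1.38 CPM in the wildtype libraries (log2 fold change -0.06, SE 0.46, adjusted p = 0.937). The muscle enolase Eno3 (chr11:70657202-70662513) had 10.4, 12.2 and 16.4 CPM in the cluster KO libraries, against 12.1, 11.4 and 7.98 CPM in the wildtype libraries, and both of these overlapped between genotypes (log2 fold change 0.31, SE 0.25, adjusted p = 0.378). Pkm (chr9:59656368-59679375), which makes pyruvate and ATP and yields the M1 and M2 isoforms by splicing that gene counts do not separate, was at 202, 242 and 323 CPM in the cluster KO libraries, against 121, 138 and 126 CPM in the wildtype libraries (log2 fold change 0.997, SE 0.16, adjusted p = 0.00349).

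**Figure D2:**
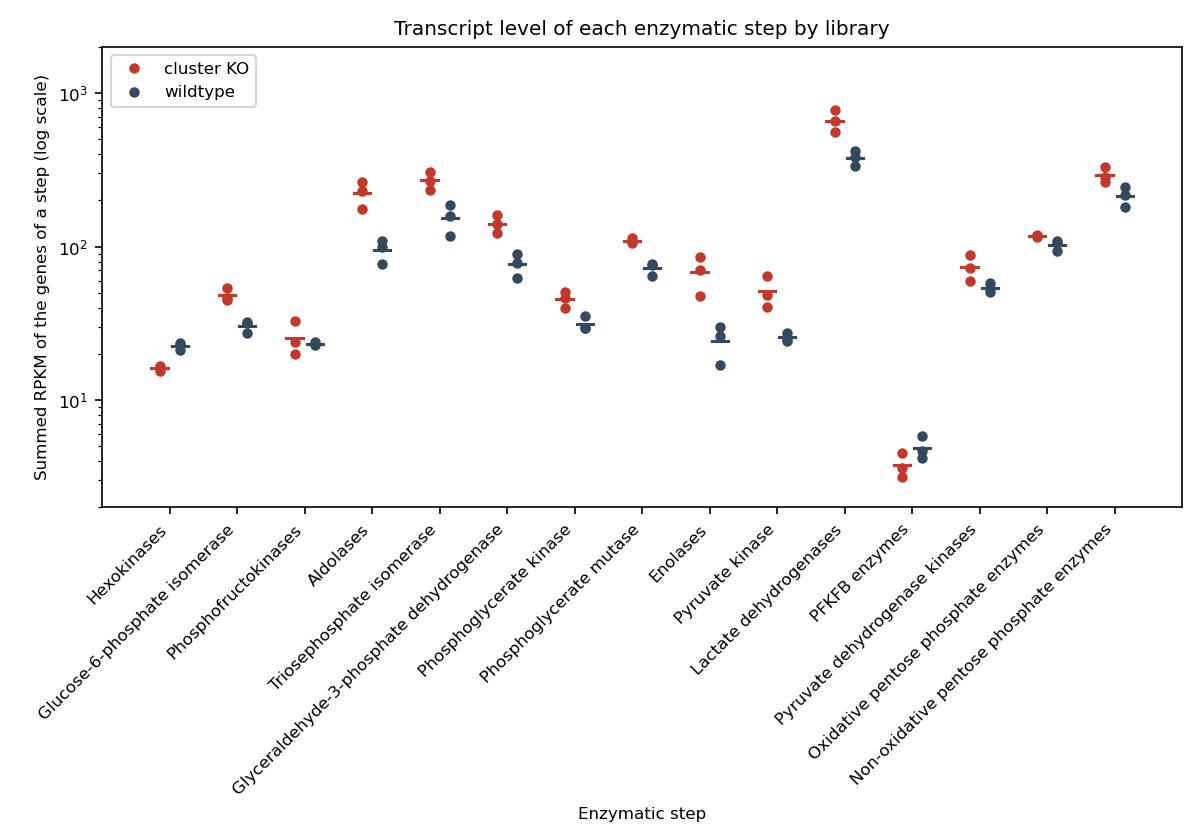
Summed RPKM of the genes of each enzymatic step (log axis), for the cluster KO (red, left) and wildtype (dark, right) libraries; points are libraries and bars the means of 3. Of the 10 glycolytic steps, 8 were higher without overlap in cluster KO, hexokinase was lower and phosphofructokinase overlapped.

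Both lactate dehydrogenase subunits rose. Ldha (chr7:46841475-46855627), whose tetramer favours lactate, was the most abundant of the 32 genes per exon length in both groups (558 RPKM in cluster KO and 325 RPKM in wildtype, means of 3) and was counted at 1519, 1817 and 2206 CPM in the cluster KO libraries, against 1186, 1099 and 947 CPM in the wildtype libraries (log2 fold change 0.78, SE 0.14, adjusted p = 0.00465). Ldhb (chr6:142490249-142507957), whose tetramer favours pyruvate, was at 154, 173 and 169.96 CPM in the cluster KO libraries, against 96.5, 85.1 and 73.8 CPM in the wildtype libraries (log2 fold change 0.96, SE 0.13, adjusted p = 0.00228). Per exon length, Ldhb made up this share of the pair: 17.6, 16.7 and 13.98% in the cluster KO libraries, against 14.6, 14.03 and 14.1% in the wildtype libraries, so the groups overlapped.

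Of the PFKFB genes 2 of 3 fell. The PFKFB enzymes set the level of fructose-2,6-bisphosphate, the strongest known activator of phosphofructokinase. Pfkfb2 (chr1:130689182-130729253) was at 7.89, 6.93 and 5.43 CPM in the cluster KO libraries, against 11.97, 10.9 and 18.1 CPM in the wildtype libraries. It fell (log2 fold change -1.02, SE 0.26, adjusted p = 0.0183), though its adjusted p was 0.0637 without cluster KO 2, 0.0531 without cluster KO 3 and 0.0832 without wildtype 3. Pfkfb3 (chr2:11471433-11554077), the isoform with the highest kinase activity, had 8.62, 7.69 and 6.26 CPM in the cluster KO libraries, against 11.2, 11.2 and 13.3 CPM in the wildtype libraries. It fell by a margin close to the threshold (log2 fold change -0.66, SE 0.22, adjusted p = 0.0481), and adjusted p was 0.125 without cluster KO 2, 0.128 without cluster KO 3, 0.0866 without wildtype 1, 0.0983 without wildtype 2 and 0.148 without wildtype 3. Pfkfb4 (chr9:108991778-109032228) had 11.04, 5.84 and 9.97 CPM in the cluster KO libraries, against 7.50, 5.88 and 7.78 CPM in the wildtype libraries, with overlap (log2 fold change 0.34, SE 0.28, adjusted p = 0.396).

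Pyruvate dehydrogenase kinases phosphorylate pyruvate dehydrogenase and so hold back the oxidation of pyruvate inside the mitochondrion. Pdk1 (chr2:71873224-71903858), a known HIF-1 target, was at 65.4, 58.2 and 51.6 CPM in the cluster KO libraries, against 64.6, 74.1 and 78.2 CPM in the wildtype libraries, and the highest cluster KO library exceeded the lowest wildtype one (log2 fold change -0.31, SE 0.14, adjusted p = 0.132). Pdk2 (chr11:95026258-95041354) was at 8.99, 12.5 and 19.3 CPM in the cluster KO libraries, against 8.36, 7.07 and 6.14 CPM in the wildtype libraries. It rose (log2 fold change 0.92, SE 0.29, adjusted p = 0.0415), with adjusted p of 0.0883 without cluster KO 2, 0.164 without cluster KO 3, 0.0636 without wildtype 1, 0.114 without wildtype 2 and 0.138 without wildtype 3 and a change of 0.58 without cluster KO 3. Pdk3 (chrX:93764607-93832201), the most abundant of the kinases at 61.7 RPKM in cluster KO and 42.4 RPKM in wildtype, was counted at 124, 157 and 192 CPM in the cluster KO libraries, against 121, 107 and 98.01 CPM in the wildtype libraries. It rose as well (log2 fold change 0.54, SE 0.16, adjusted p = 0.0347), with adjusted p of 0.101 without cluster KO 2, 0.0993 without cluster KO 3, 0.113 without wildtype 2 and 0.129 without wildtype 3. With length and GC trends removed, Pdk2 was at 0.70 and Pdk3 at 0.39, and neither passed.

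In the pentose phosphate pathway 3 of 7 genes rose and 1 fell. G6pdx (chrX:74409483-74429194), the NADPH-yielding dehydrogenase that opens and limits the oxidative arm, was at 73.8, 79.3 and 109.9 CPM in the cluster KO libraries, against 46.9, 51.9 and 47.1 CPM in the wildtype libraries, without overlap (log2 fold change 0.85, SE 0.17, adjusted p = 0.00607). The next enzymes of that arm did not pass the test. Pgls (chr8:71592176-71601092), the lactonase, was at 309, 303 and 273 CPM in the cluster KO libraries, against 297, 301 and 256 CPM in the wildtype libraries (log2 fold change 0.05, SE 0.11, adjusted p = 0.767). Pgd (chr4:149149991-149166771), the second NADPH-yielding dehydrogenase, was at 78.5, 65.1 and 68.6 CPM in the cluster KO libraries, against 78.96, 72.9 and 70.8 CPM in the wildtype libraries (log2 fold change -0.07, SE 0.13, adjusted p = 0.713). Pgls and Pgd overlapped between the genotypes. Like Pgk1 and Pdk3, G6pdx is X-linked. Of 495 tested X-linked genes without Xist and Tsix 74 rose (14.9%) and 56 fell, while of all genes tested 15.9% rose and 12.1% fell. The part of sex makeup cannot be told apart from that of genotype.

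The non-oxidative arm held the largest fall of the set. Rpia (chr6:70765720-70792232), the isomerase that makes ribose-5-phosphate, was at 19.8, 14.5 and 12.3 CPM in the cluster KO libraries, against 46.3, 47.99 and 61.5 CPM in the wildtype libraries. Its highest cluster KO library lay far below its lowest wildtype library (log2 fold change -1.74, SE 0.21, adjusted p = 0.00135). Rpe (chr1:66700831-66719805), the epimerase that draws on the same substrate, ribulose-5-phosphate, moved the other way, at 51.9, 68.2 and 87.02 CPM in the cluster KO libraries, against 50.8, 41.9 and 46.1 CPM in the wildtype libraries. It rose close to the threshold (log2 fold change 0.58, SE 0.19, adjusted p = 0.044), with adjusted p of 0.113 without cluster KO 2, 0.131 without cluster KO 3, 0.07 without wildtype 1, 0.152 without wildtype 2 and 0.122 without wildtype 3 and a change of 0.38 without cluster KO 3. Taldo1 (chr7:141392199-141402968), transaldolase, was at 492, 529 and 616 CPM in the cluster KO libraries, against 437, 381 and 301 CPM in the wildtype libraries. It rose (log2 fold change 0.55, SE 0.15, adjusted p = 0.0201), with adjusted p of 0.0625 without cluster KO 2, 0.0605 without cluster KO 3, 0.0714 without wildtype 2 and 0.0708 without wildtype 3, and was at 0.25, short of the threshold, after correction for length and GC. Tkt (chr14:30548359-30574720), transketolase, was at 111, 105 and 127 CPM in the cluster KO libraries, against 130.1, 138 and 129 CPM in the wildtype libraries, lower in every cluster KO library by a small margin that did not pass (log2 fold change -0.21, SE 0.12, adjusted p = 0.213; adjusted p = 0.0258 after correction for length and GC).

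Isoform makeup was compared within enzyme families. In each of 7 families, an isoform's share was taken of the family's summed RPKM. Of 19 shares, 11 did not overlap between the genotypes, while the CPM of 46.0% of all genes tested did not. The shares of a family add up to the whole, so the 11 are not separate observations. For each, the two-sided exact permutation test gave p = 0.1, the lowest this design can give, and 0.173 after Benjamini-Hochberg adjustment over the 19. Of enolase, Eno1 made up 86.6, 89.8 and 88.4% in the cluster KO libraries, against 75.6, 73.4 and 70.97% in the wildtype libraries, and the rest was almost all Eno3. Of phosphofructokinase, Pfkm made up 49.9, 49.99 and 45.9% in the cluster KO libraries, against 61.8, 61.3 and 64.8% in the wildtype libraries. Pfkl filled most of the difference, at 39.5, 39.4 and 41.96% in the cluster KO libraries, against 30.4, 29.5 and 26.7% in the wildtype libraries. Of hexokinase, Hk3 made up 30.05, 29.5 and 31.6% in the cluster KO libraries, against 23.1, 18.7 and 22.6% in the wildtype libraries, a share that was higher in cluster KO while the CPM of Hk3 was not. Of the PFKFB enzymes, Pfkfb4 made up 50.4, 37.8 and 56.5% in the cluster KO libraries, against 32.9, 28.8 and 27.3% in the wildtype libraries. Of the 3 pyruvate dehydrogenase kinases, Pdk1 made up 14.1, 10.3 and 7.55% in the cluster KO libraries, against 14.3, 17.8 and 20.003% in the wildtype libraries. Of aldolase, Aldoa made up 96.2, 96.4 and 95.96% in the cluster KO libraries, against 98.4, 97.4 and 95.8% in the wildtype libraries, so the rise of Aldoc concerned a small part of that enzyme's RNA. Shares depend on the exon lengths used. With median transcript lengths in place of exon lengths the difference for Eno1 was 7.43 percentage points instead of 14.96, that for Hk3 1.72 instead of 8.90 and that for Hk1 -1.50 instead of -5.78, and with raw counts that for Eno1 was 7.004. For Pfkl it was 7.42 with transcript lengths instead of 11.5, and for Pdk1 -12.5 with raw counts instead of -6.72.

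**Figure D3:**
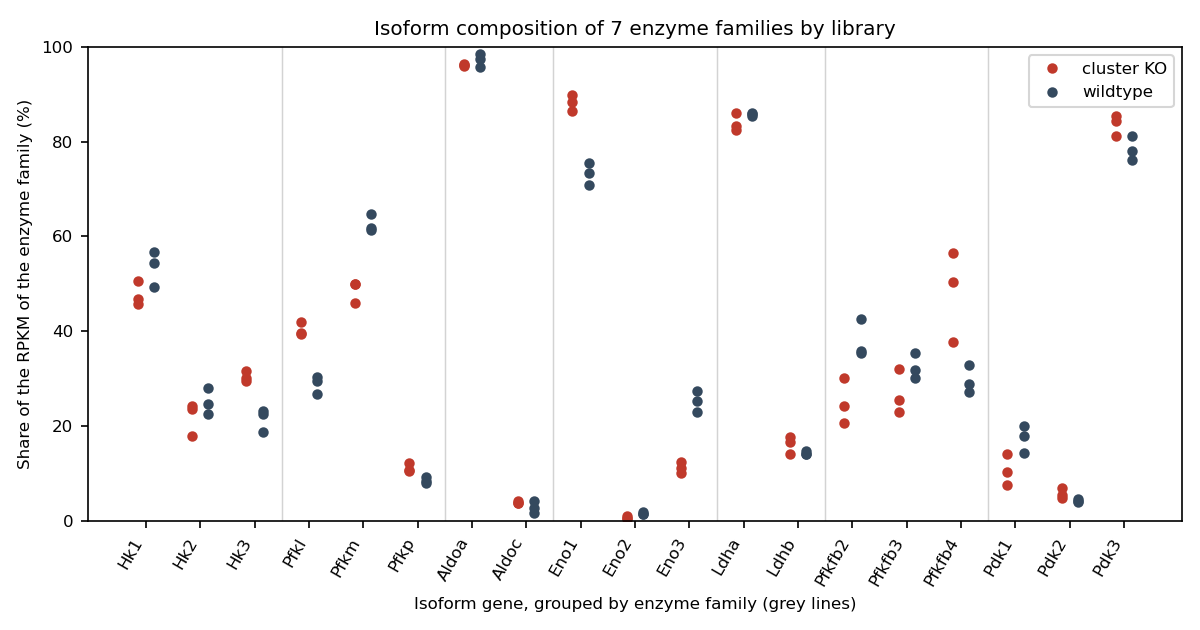
Share of each isoform gene in the summed RPKM of its enzyme family (vertical axis, percent) in the cluster KO (red, left) and wildtype (dark, right) libraries; each point is 1 library and grey lines part the families. Eno1, Pfkl, Hk3 and Pfkfb4 took larger shares in cluster KO, and Eno3, Pfkm and Pfkfb2 smaller ones.

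Per exon length the order of the enzymes was much the same in both groups. Ldha led, with Taldo1, Tpi1, Aldoa and Gapdh next, while the PFKFB genes, Pfkp and Eno2 were last. Eno1 changed place the most among the abundant enzymes, with 60.1 RPKM in cluster KO and 17.9 RPKM in wildtype (rank 10 against 14 of 32), and Rpia was at rank 27 in cluster KO, against rank 20 in wildtype, with 2.89 RPKM in cluster KO and 9.69 RPKM in wildtype. Those levels are means of 3 libraries, and neighbours in the order, such as Taldo1 (251 RPKM in cluster KO and 172 RPKM in wildtype) and Tpi1 (269.8 RPKM in cluster KO and 154 RPKM in wildtype), differed by less than the spread between libraries.

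The libraries of 1 genotype were not alike, and the enzymes followed a gradient among them. Of the 17 genes that rose, 16 were lowest in the cluster KO library with the highest share of counts on rRNA genes and highest in the one with the lowest share, as were 67.1% of all genes that rose. Among wildtype libraries 12 of the 17 ran in the same order, beside 43.1% of all genes that rose. Ldhb was the exception in cluster KO. Of the 5 genes that fell, 4 ran in the opposite order in cluster KO, beside 62.3% of all genes that fell, and 2 did in wildtype, beside 45.3% of all genes that fell. The medians over the 32 genes of log2 CPM minus the wildtype mean were 0.279, 0.500 and 0.723 in the cluster KO libraries, against 0.0808, 0.0380 and -0.0742 in the wildtype libraries.

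Neighbouring or similar genes could lend or take reads, since the library kit keeps no strand. Exons of G6pdx overlap those of Ikbkg on the other strand by 418 bases, and Ikbkg was at a log2 fold change of 0.01 (adjusted p = 0.98). Rpe overlaps Kansl1l by 558 bases, and Kansl1l itself rose (log2 fold change 0.66, adjusted p = 0.00791). Tpi1 overlaps Spsb2, which also rose, by 34 bases only, and Spsb2 had 90 to 308 counts against 6339 or more for Tpi1. Pfkp shares 748 bases with Pitrm1, which did not pass (-0.15, adjusted p = 0.455), and Pgls shares 776 bases with Fam129c on its own strand (0.51, adjusted p = 0.266). Hk1os, antisense to Hk1 over 157 bases, was at -0.19 (adjusted p = 0.635). Some enzyme genes, Gapdh and Eno1 among them, are known to have near-identical processed copies, so their counts are less certain. Of 7 such copies found by name, only Eno1b had enough counts to test, with 16 to 42 counts a library (0.20, adjusted p = 0.77). None of the 7 was named after Gapdh, and copies of Gapdh under other names were not examined. Of all reads, those with more than 1 alignment were not counted for any gene and made up 14.7, 13.9 and 13.4% in the cluster KO libraries, against 16.1, 16.3 and 16.8% in the wildtype libraries.

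Genes around the pathway were taken from 6 further lists. Of their 90 tested genes 25 rose (27.8%) and 8 fell (8.89%), beside 15.9% and 12.1% of all genes tested, with a median log2 fold change of 0.19. Rises numbered 11 to 13 without cluster KO 2, cluster KO 3, wildtype 2 or wildtype 3, and falls numbered 2 without cluster KO 2, 3 without wildtype 2 or wildtype 3 and 4 without wildtype 1. Of these 33 calls 9 held with each library left out in turn. The other 24 were lost without at least 1 library. The list of the same enzymes' other isoforms gave 3 rises in 10 tested genes (30.0%, beside 15.9% of all genes tested) and no fall. The ADP-dependent glucokinase Adpgk rose by 0.61 (SE 0.14, adjusted p = 0.0104). Bpgm, the bisphosphoglycerate mutase of red cells, rose by 0.67 (SE 0.19, adjusted p = 0.0242), and the muscle mutase Pgam2 by 1.16 (SE 0.38, adjusted p = 0.046). Each of the 3 calls was lost with some library left out. The adjusted p of Adpgk was 0.0553 without wildtype 2. For Bpgm it was 0.0526 to 0.0896 without cluster KO 2, cluster KO 3, wildtype 1 or wildtype 3. For Pgam2 it was 0.0781 to 0.164 with any 1 library other than cluster KO 1 left out. Liver-type pyruvate kinase Pklr did not pass (-0.03, SE 0.23, adjusted p = 0.932), and 8 further isoforms had too few counts to test.

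Transport genes moved both ways, with 3 of 10 risen and 3 fallen (30.0% each), beside 15.9% and 12.1% of all genes tested. Both subunits of the mitochondrial pyruvate carrier fell, each by a call that leaving out 1 library can end. Mpc1 was at 237, 216 and 222 CPM in the cluster KO libraries, against 315, 308 and 291 CPM in the wildtype libraries (log2 fold change -0.44, SE 0.10, adjusted p = 0.0112). Its adjusted p was 0.0587 to 0.0698 without cluster KO 2 or wildtype 2. Mpc2 was at 173, 156 and 131 CPM in the cluster KO libraries, against 212, 214 and 242 CPM in the wildtype libraries (log2 fold change -0.54, SE 0.13, adjusted p = 0.014). Here the adjusted p was 0.0591 to 0.0613 without cluster KO 2 or wildtype 3. The monocarboxylate transporter gene Slc16a1 fell as well (-0.44, SE 0.13, adjusted p = 0.0289), while Bsg, which encodes its chaperone basigin, rose (0.65, SE 0.15, adjusted p = 0.0117). The adjusted p of Slc16a1 was 0.0572 to 0.142 without cluster KO 2, wildtype 1, wildtype 2 or wildtype 3. For Bsg it was 0.051 to 0.0589 without wildtype 2 or wildtype 3. The glucose transporter genes Slc2a1 (0.69, SE 0.25, adjusted p = 0.059) and Slc2a3 (-0.18, SE 0.15, adjusted p = 0.404) did not pass. The glucose transporter gene Slc2a6 and the monocarboxylate transporter gene Slc16a7, which rose, were at 0.339 to 5.34 CPM in all libraries. The adjusted p of Slc2a6 was 0.0542 to 0.14 with any 1 library left out. For Slc16a7 it was 0.0503 to 0.0961 with any 1 library other than wildtype 3 left out.

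Side branches held most of the further rises, with 13 of 28 risen (46.4%) and 3 fallen (10.7%), beside 15.9% and 12.1% of all genes tested. Phgdh, which diverts 3-phosphoglycerate into serine synthesis, was at 191, 262 and 313 CPM in the cluster KO libraries, against 115, 116 and 102 CPM in the wildtype libraries (log2 fold change 1.20, SE 0.17, adjusted p = 0.00248). Fbp1, the gluconeogenic bisphosphatase that opposes phosphofructokinase, was at 23.1, 17.2 and 20.4 CPM in the cluster KO libraries, against 8.36, 9.61 and 7.57 CPM in the wildtype libraries (log2 fold change 1.25, SE 0.20, adjusted p = 0.00328). Gfpt1, the entry to the hexosamine pathway, fell (-0.85, SE 0.15, adjusted p = 0.00474). The calls of Phgdh, Fbp1 and Gfpt1 held with each library left out in turn. Many other calls of this list, rises and falls alike, were lost without at least 1 library. Of 8 genes of the pyruvate dehydrogenase complex and its phosphatases 1 rose and 1 fell (12.5% each), beside 15.9% and 12.1% of all genes tested. The rise was the phosphatase gene Pdp1 (0.63, SE 0.21, adjusted p = 0.0475) and the fall the phosphatase regulator gene Pdpr (-1.003, SE 0.32, adjusted p = 0.0418). Pdp1 had an adjusted p of 0.0934 to 0.142 with any 1 library other than cluster KO 2 left out. For Pdpr it was 0.0675 to 0.143 with any 1 library other than cluster KO 1 left out. The complex's subunit genes Pdhb (0.25, SE 0.11, adjusted p = 0.118) and Dld (0.30, SE 0.15, adjusted p = 0.18) did not pass.

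Known regulators of glycolytic genes gave 2 rises among 18 (11.1%, beside 15.9% of all genes tested), Mlx, a partner of the glucose sensor ChREBP, at 0.89 (SE 0.20, adjusted p = 0.011), and Trp53, which encodes the tumour suppressor p53, at 0.62 (SE 0.16, adjusted p = 0.0192). Mlx had an adjusted p of 0.0508 without cluster KO 2. For Trp53 it was 0.0523 to 0.0829 without cluster KO 2, cluster KO 3, wildtype 2 or wildtype 3. Hif1a, the oxygen-regulated activator, was at 43.7, 50.1 and 43.2 CPM in the cluster KO libraries, against 42.9, 47.03 and 56.1 CPM in the wildtype libraries (log2 fold change -0.09, SE 0.15, adjusted p = 0.68), which says nothing of its protein. Myc had 185, 278 and 378 CPM in the cluster KO libraries, against 191, 179.9 and 177 CPM in the wildtype libraries. The cluster KO libraries of Myc spread widely and reached into the wildtype range (log2 fold change 0.62, SE 0.21, adjusted p = 0.0506). Mlxipl, which encodes ChREBP, did not pass (-1.29, SE 0.47, adjusted p = 0.0662). Of HIF-1 targets outside glycolysis 3 of 16 rose (18.8%) and 1 fell (6.25%), beside 15.9% and 12.1% of all genes tested. Cited2 (0.76, SE 0.15, adjusted p = 0.00673), Bnip3 (0.64, SE 0.16, adjusted p = 0.0161) and Car9 (0.78, SE 0.21, adjusted p = 0.0205) rose, and Higd1a fell (-0.73, SE 0.15, adjusted p = 0.00656). The calls of Cited2 and Higd1a held with each library left out in turn. Bnip3 had an adjusted p of 0.0665 to 0.0685 without cluster KO 2 or wildtype 3. Car9 had one of 0.054 to 0.0805 without cluster KO 3, wildtype 1, wildtype 2 or wildtype 3.

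**Figure D4:**
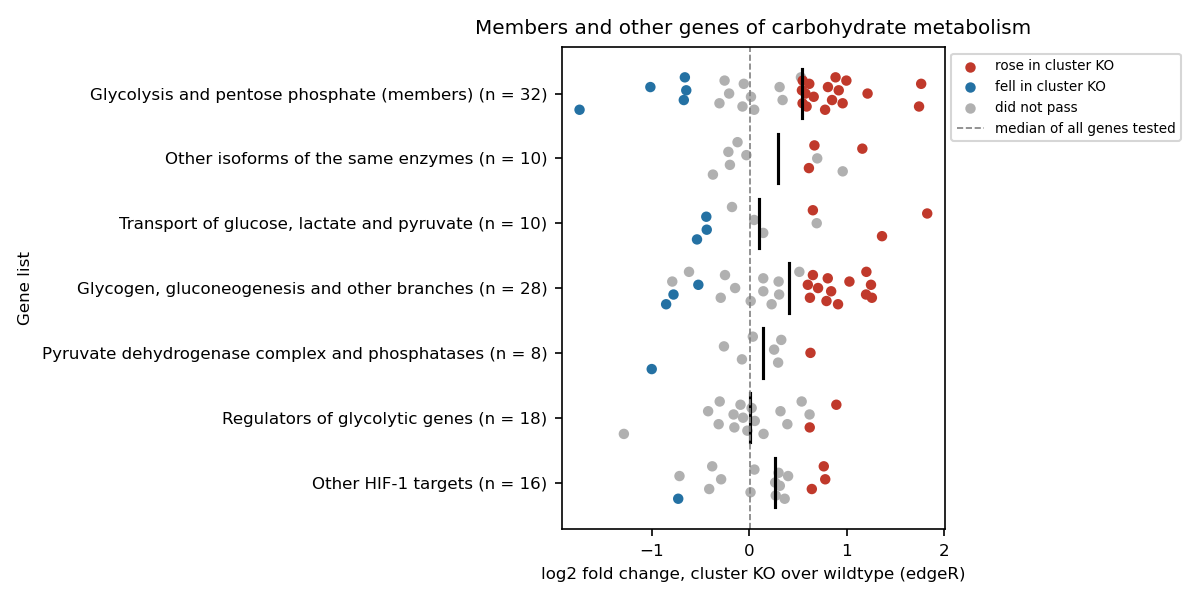
Log2 fold changes, cluster KO over wildtype, of the 32 glycolysis and pentose phosphate genes and of 6 further lists (rows; n is the number of genes tested); colours give the call, black bars the list medians and the dashed line the median of all genes tested. The 32 genes have a median of 0.54, the side branches 0.41 and the regulators 0.00.

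Promoter sequences of the enzymes were searched for 2 motifs on both strands, ACGTG, the core of the hypoxia response element, and CACGTG, the E-box bound by MYC, which contains the first on both strands. RefSeq promoters (GRCm38.p6, 250 bases before to 50 after the start) matched all 32 genes by symbol, 49 promoters in all. ACGTG stood in 40.8% of these 49 and in 24.9% of the 13731 promoters of the tested genes that matched. CACGTG stood in 10.2% of the 49, against 9.72%. With 1 promoter a gene, the one nearest the annotated gene start, 8 of the 17 genes that rose (47.1%), 2 of the 5 that fell (40.0%) and 2 of the 10 that did not pass held ACGTG. With any of a gene's promoters, 10 of the 17 that rose (58.8%) and 4 of the 5 that fell (80.0%) did, against 28.8% of 10821 tested genes. The 5 that fell have 9 promoters in all. The nearest promoter was not always close to the annotated gene start. Its transcript start lay 4329 bases away for Ldha, 13205 for Pfkfb2, 772 for Tkt and 694 for Gapdh. The promoters below, 1 a gene and the one nearest the annotated gene start, show the most abundant enzyme, Ldha, 2 further genes that rose and hold the motif, Pgk1 and Aldoc, and the gene that rose and the gene that fell with large changes and no match, Eno1 and Rpia. Capitals mark ACGTG or its reverse complement, CACGT. Positions are chr7:46845554-46845853, plus strand (Ldha), chrX:106186850-106187149, plus strand (Pgk1), chr11:78322823-78323122, plus strand (Aldoc), chr4:150236458-150236757, plus strand (Eno1) and chr6:70792126-70792425, minus strand (Rpia).
Ldha: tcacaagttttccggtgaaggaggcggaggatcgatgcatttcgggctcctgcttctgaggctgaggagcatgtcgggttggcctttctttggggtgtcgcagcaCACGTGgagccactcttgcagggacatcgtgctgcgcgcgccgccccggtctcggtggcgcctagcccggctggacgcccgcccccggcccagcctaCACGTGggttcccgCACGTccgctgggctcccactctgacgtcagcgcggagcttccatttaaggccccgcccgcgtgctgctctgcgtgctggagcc
Pgk1: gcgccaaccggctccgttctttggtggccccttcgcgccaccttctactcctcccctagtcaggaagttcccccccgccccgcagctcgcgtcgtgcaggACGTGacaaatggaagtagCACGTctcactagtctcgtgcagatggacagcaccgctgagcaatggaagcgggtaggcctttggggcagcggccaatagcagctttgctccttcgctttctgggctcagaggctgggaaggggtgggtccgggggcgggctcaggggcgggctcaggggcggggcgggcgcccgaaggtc
Aldoc: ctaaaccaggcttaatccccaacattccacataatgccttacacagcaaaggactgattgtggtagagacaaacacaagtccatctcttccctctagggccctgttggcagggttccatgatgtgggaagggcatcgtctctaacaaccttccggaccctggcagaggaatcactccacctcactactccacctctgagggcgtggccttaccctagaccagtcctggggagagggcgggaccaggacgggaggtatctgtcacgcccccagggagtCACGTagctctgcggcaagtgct
Eno1: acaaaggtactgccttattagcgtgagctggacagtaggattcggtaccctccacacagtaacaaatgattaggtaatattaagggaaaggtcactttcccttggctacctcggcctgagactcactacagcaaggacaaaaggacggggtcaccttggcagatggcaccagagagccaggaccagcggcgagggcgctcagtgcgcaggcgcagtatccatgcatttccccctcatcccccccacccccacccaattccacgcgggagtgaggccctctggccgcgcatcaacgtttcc
Rpia: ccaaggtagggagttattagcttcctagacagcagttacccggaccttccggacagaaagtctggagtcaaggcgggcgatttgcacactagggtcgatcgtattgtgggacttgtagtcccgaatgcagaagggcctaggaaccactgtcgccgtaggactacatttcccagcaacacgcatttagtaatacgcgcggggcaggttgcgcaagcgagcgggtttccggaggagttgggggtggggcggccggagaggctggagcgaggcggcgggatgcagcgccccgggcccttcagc
Ldha holds 3 marked stretches, 2 of which are full E-boxes, Pgk1 holds 2 and Aldoc 1. A match is a string of letters and not a measured binding site, and the unmatched windows of Eno1 and Rpia, whose changes were 1.74 and -1.74, say only that these letters are not there.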

How the data were processed

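The authors deposited raw read counts per Ensembl gene, 1 column for each of the 6 libraries. Per the labels' protocols, libraries were made from poly(A) RNA of marrow cell extracts with a Nextera kit without strand information, and the 6 were sequenced as 1 pool. Tools named in the submitters' processing notes are bcl2fastq, TopHat2 and HTSeq, with mm10 as the build; versions, annotation release and counting mode were not given in the sources used here.

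Library sizes and tests exclude the 5 HTSeq summary rows; by mean share of all reads, multiple alignments took 13.98% in cluster KO and 16.4% in wildtype, no gene 8.65% and 10.5%, and ambiguity 2.77% and 2.93%. Symbols, positions (GRCm38, as mm10) and exon lengths came from GENCODE M21, which matched 47310 of 47729 genes. Groups came from sample titles. edgeR 4.0.16 in R 4.3.3 was run with TMM, filterByExpr (minimum count 10), robust quasi-likelihood dispersion, a genotype term alone and Benjamini-Hochberg adjustment. SE is the coefficient divided by the square root of F. The fit was tested on simulated data, where it recovered 56 of 100 changes of 2-fold and 88 of 100 of 4-fold. A gene that did not pass may thus still have changed. Chi-square per degree of freedom was 12.2 to 71.4 between libraries of 1 genotype, above sampling noise. A count of 0 allows up to 3 counts, 0.128 to 0.17 CPM, a limit from counting error alone. Single values were compared by exact permutation tests (scipy 1.17.1).

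The named genes are all 32 enzymes and, of each further list, up to 4 tested genes with the smallest p, of which 1 is not reported here; Pklr, Slc2a1, Slc2a3, Slc2a6, Slc16a7, Hif1a and the overlapping and sex-linked genes were named after their values were seen. The members and lists were chosen with earlier results of these data known. Alternatives were RLE and upper quartile scaling, DESeq2 1.42.0, no filter, removal of length and GC trends (splines with 5 degrees of freedom), the replicate number as a block, each library left out and, added after seeing the data, cluster KO 3 and wildtype 3 left out together.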

Additional observations from a re-analysis of the deposited data

How the results depend on the processing

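The calls of Gpi1, Aldoa, Aldoc, Gapdh, Eno1, Pkm, Ldha, Ldhb (higher in cluster KO) and Rpia (lower) passed under all 14 alternatives, and no called enzyme changed direction in any of them. The 17 rises and 5 falls among the enzymes became 11 and 6 with length and GC trends removed, and with 1 library left out ran from 11 to 18 and from 2 to 5. With cluster KO 3 and wildtype 3 left out together, an alternative chosen after seeing the data, 11 rose and 2 fell. The median log2 fold change of the 32 enzymes was 0.33 with length and GC trends removed, 0.32 without both of those libraries and 0.37 to 0.63 with 1 library left out. Over all genes, 2487 higher and 1895 lower calls became 1303 and 852 without both libraries and ran from 1258 to 3151 and from 742 to 2579 with 1 left out. The 25 rises and 8 falls among the other genes of carbohydrate metabolism became 11 and 4 without both, and ran from 11 to 30 and from 2 to 9 with 1 left out. Upper quartile scaling shifted the median of all genes to -0.10, beside 0.43 for the enzymes; 15 enzymes rose and 5 fell under it, Pdk2 and Rpe missing the threshold, and over all genes 2100 rose and 2411 fell. With 1 library left out, the difference in the share of counts on the enzymes was 0.221 to 0.305 percentage points, against 0.263. Isoform shares without overlap then numbered 11 to 14. Leaving out a library cannot make shares overlap that did not, so this count could not fall and does not speak to stability.

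The labels number the libraries 1 to 3 in both groups. The correlations of same-numbered libraries' deviations from their group means were -0.198, -0.000354 and -0.171, so same-numbered libraries did not deviate alike. Whether the numbers pair the libraries cannot be told from this, since a gradient within each group also enters the correlations. Cluster KO 1 correlated best with wildtype 3 (0.166) and cluster KO 3 with wildtype 1 (0.204). With the replicate number as a block, 1331 genes were higher and 865 lower, 11 enzymes rose and 2 fell, and 10 other pathway genes rose and 2 fell. With the block and length and GC trends removed these were 1197 and 891, 8 and 1, and 6 and 2, with a median of 0.32 for the enzymes. The cause of these differences was not tested; fewer libraries or fewer residual degrees of freedom are part of how each was made. Depth limits Eno2, with 22 to 47 counts a library, the most.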
